A study of Nematostella vectensis with 4 samples.

Results

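Among dissociated cells of *Nematostella vectensis* gastrulae, 2116 of 16089 barcodes with at least 500 genes carried the trunk Wnt gene *Nvwnt2* (NV2g003168000.1) at 300 or more CPM, the number of its unique molecular identifiers (UMIs) scaled to a total of 1000000 UMIs per barcode. The same barcodes had at least 2 *Nvwnt2* UMIs and 0 UMIs of *NvLWamide*, *Nvncol1* and *Nvmucin*, which mark peptidergic neurons, stinging cells and gland cells. These barcodes are called *Nvwnt2* cells. They were set against 11194 barcodes with 0 *Nvwnt2* UMIs. They were also set against 569 cells high in NV2g011441000.1 and 258 cells high in *NvsnailA*, both chosen by the same levels of their own gene and with 0 UMIs of *Nvwnt2* and of the 3 excluded genes. All cells came from whole embryos at 24 h post fertilization, dissociated as 1 pool. From the pool, 4 droplet libraries (replicates 1 to 4) were made on 1 chip, so the replicates are technical and p-values measure only the spread between them. No genotype, strain or treatment is named for the animals.

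Wnt proteins are secreted signals. In cnidarians, Wnt activity is highest at the oral end and is part of the program that lays out the oral-aboral axis, along which different genes are expressed in successive stripes. *Nvwnt2* is one of these regional genes and marks a band of the ectoderm in the trunk, between the oral and the aboral region. *NvsnailA*, a snail-family zinc finger gene, marks the mesoendoderm. NV2g011441000.1 is listed by the study as marking aboral ectoderm under one gene name and pharyngeal ectoderm under another, so the ID is used here and no region is assigned to it.

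The libraries held 4251, 3319, 2686 and 8523 barcodes and 45268807, 25047237, 22980631 and 56880930 UMIs. Replicate 4 held the most barcodes and the shallowest ones. Of the barcode sequences, 38 occurred in more than 1 library, and 0 of them was an *Nvwnt2* cell in more than 1. Doublets were not removed.

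The *Nvwnt2* cells numbered 546, 467, 340 and 763 in replicates 1 to 4. Their share of barcodes with at least 500 genes was 14.8% (95% exact Clopper-Pearson interval 13.7% to 16.03%), 16.1% (14.7% to 17.5%), 15.0% (13.5% to 16.5%) and 10.5% (9.85% to 11.3%). The mean share was 14.1% ± 2.44 (SD, n = 4), and replicate 4 lay below the intervals of the others. Without replicate 4 the mean was 15.3% ± 0.669. The intervals cover counting error only.

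The rule left many barcodes out. *Nvwnt2* was detected in 4895 barcodes, of which 2491 did not reach both levels. Of the 2404 that did, 288 held an excluded gene. These comprised 182 with *NvLWamide*, 63 with *Nvncol1* and 73 with *Nvmucin*, and 28 of them held more than 1 of the 3. *Nvwnt2* was the only trunk marker with an ID in the study's marker list, and the rule used it. No second trunk gene was therefore at hand to check the name, and the cells are called by their gene.

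*Nvwnt2* itself, which chose the cells, is given as a description. Summed over the *Nvwnt2* cells of a library it made up 685, 723, 705 and 706 CPM in replicates 1 to 4. The libraries differed little in this level. The median cell held 6, 5, 5 and 5 *Nvwnt2* UMIs. Together the *Nvwnt2* cells held 64.3% of all *Nvwnt2* UMIs and 15.6% of all UMIs. The level per cell spread widely, with quartiles of 501 and 1098 CPM and a highest value of 6116. Many cells met the rule narrowly, since 432 (20.4%) had exactly 2 *Nvwnt2* UMIs, which ranged from 10.4% in replicate 1 to 28.2% in replicate 4. Between 300 and 330 CPM lay 76 *Nvwnt2* cells, and 81 barcodes without the excluded genes and with 2 or more UMIs lay between 270 and 300. A further 767 barcodes reached 300 CPM on 1 UMI alone and were left out.

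Depth moved with membership. *Nvwnt2* cells had medians of 9317.5, 6020, 6927.5 and 6981 UMIs, against 4392, 3981, 3924 and 1787 in barcodes with 0 *Nvwnt2* UMIs. They were the deeper group in every library, but the rule favors this. It asks for at least 2 *Nvwnt2* UMIs in one group and 0 in the other. Cells high in NV2g011441000.1 had medians of 9197, 7102, 8370 and 4044 UMIs. Those of cells high in *NvsnailA* were 25537.5, 15516, 16877 and 5391, so only in replicate 4 were *Nvwnt2* cells the deepest of these. Of barcodes with 500 to 2000 UMIs, 3.52% were *Nvwnt2* cells, while the share was 25.5% at 5000 to 10000 UMIs and 11.5% at 20000 or more. In replicate 4, 45.7% of barcodes lay in the shallowest bin, against 24.1% to 26.8% in the other libraries. Within the bin of 5000 to 10000 UMIs the shares were 25.1%, 29.6%, 27.1% and 20.4% in replicates 1 to 4, and within 10000 to 20000 they were 26.1%, 15.3%, 17.3% and 28.9%. Replicate 4 was thus the lowest in one of these bins and the highest in the other. The part of depth in the lower share of replicate 4 was not tested.

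**Figure D1:**
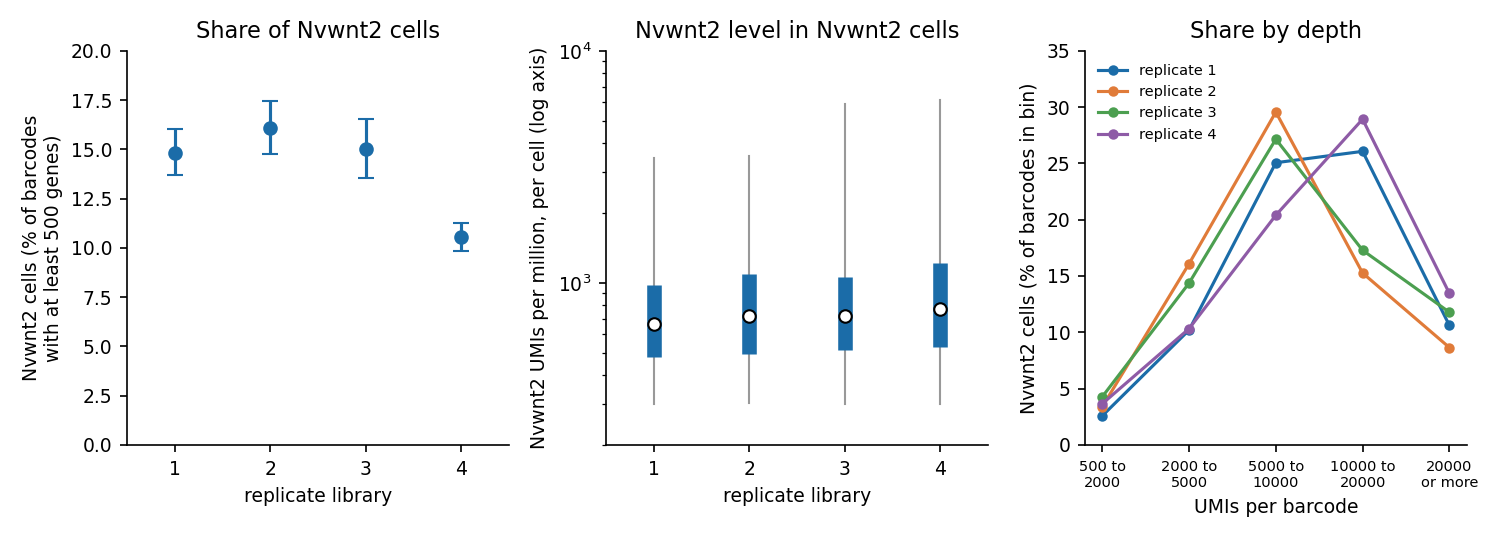
Share of *Nvwnt2* cells among barcodes with at least 500 genes, with 95% exact binomial intervals (left), *Nvwnt2* CPM in single *Nvwnt2* cells, with the median as a circle, the quartiles as a bar and the range as a line (middle, log axis), and share of *Nvwnt2* cells by UMIs per barcode in each library (right). Replicate 4 has the lowest share, 10.5%, while the medians of *Nvwnt2* in its cells, 771 CPM, and in those of the other libraries, 662 to 721, lie close together.

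Clustering on 4000 variable genes, with the marker genes left out, gave 20 clusters. *Nvwnt2* cells were concentrated in 1 of them, numbered 0, which held 1311 *Nvwnt2* cells, 62.0% of all. They made up 57.5%, 57.1%, 55.3% and 53.9% of cluster 0 in replicates 1 to 4, a mean of 56.0% ± 1.65 (SD, n = 4). This share was steady across libraries. Seen from the other side, cluster 0 took 71.6%, 72.4% and 64.4% of the *Nvwnt2* cells of replicates 1 to 3 but 47.6% of those of replicate 4. Shares of clusters are given here without a test, since the genes that made the clusters were measured in the same cells. The same limit holds for the tests within cluster 0 given below.

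Other *Nvwnt2* cells were scattered. Cluster 2 took 213 of them (10.1%), and its cells were shallow, with a median of 1162 UMIs. Cluster 4 took 189 (8.93%). Cluster 11, the one with the highest *Nvath-like* level (403 CPM) and *Nvnanos* at 114 CPM, took 95, which were 15.9% of its cells. Cluster 12 took 44, of which 42 were from replicate 4, the library that gave 201 of its 226 cells. Cluster 6, where *NvsnailA* stood at 202 CPM, held 2 *Nvwnt2* cells among 1030 although its median depth was 23439 UMIs. Cluster 5, which held 85.6% of the cells high in NV2g011441000.1, held 21 among 1038. Clusters 10, 13 and 19 held 0. Of these, cluster 10 was highest in *NvLWamide* (2469 CPM) and cluster 13 highest in *Nvncol3* (28386 CPM). The rule removes cells of the first kind through *NvLWamide*. It also removes cells of cluster 13 that hold *Nvncol1*, which stood at 225 CPM there.

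**Figure D2:**
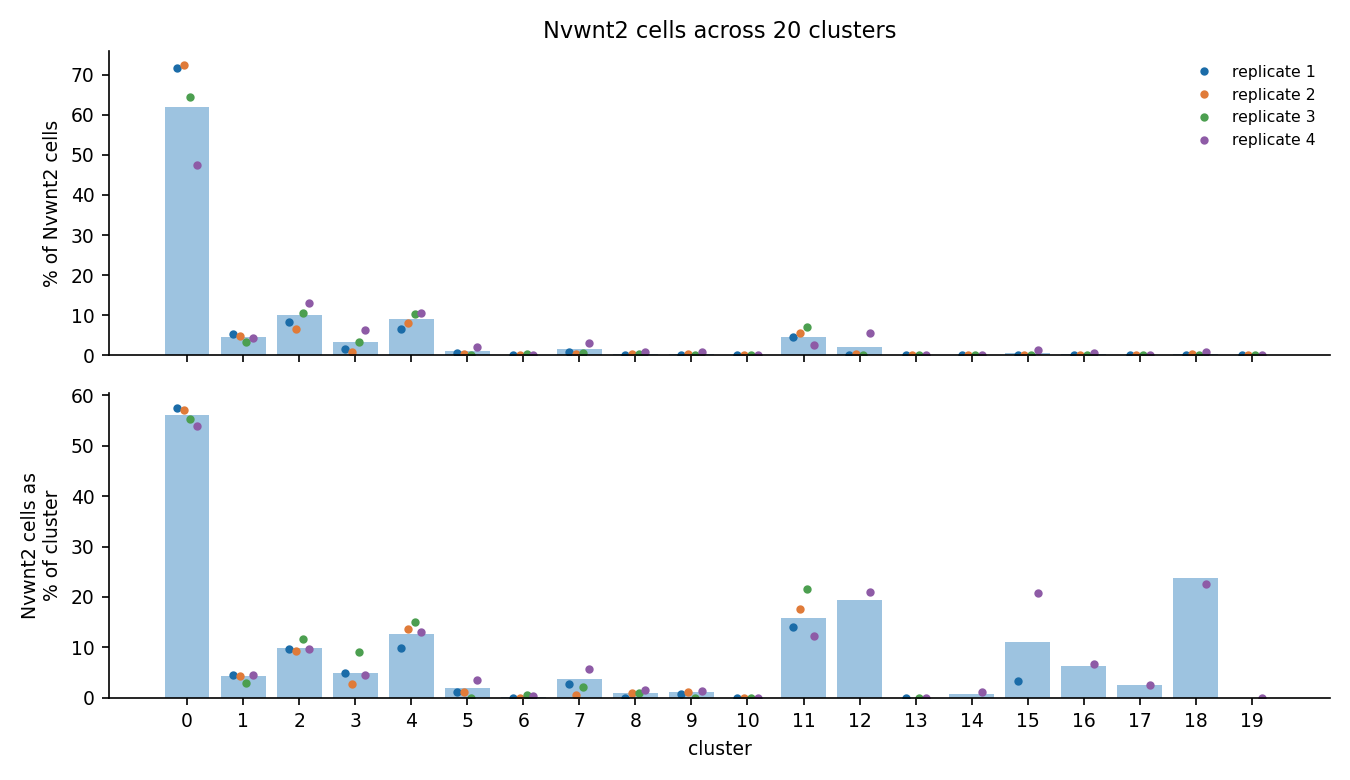
Percent of *Nvwnt2* cells found in each of 20 clusters (top) and *Nvwnt2* cells as a percent of each cluster (bottom), with bars over all cells and points for each library, drawn in the lower panel where the library had at least 20 cells in the cluster. Cluster 0 holds 62.0% of the *Nvwnt2* cells, which are 56.0% of it.

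To ask which genes differ in the cells that carry *Nvwnt2*, UMIs were summed per library over *Nvwnt2* cells and over barcodes with 0 *Nvwnt2* UMIs, and 16035 genes were tested with edgeR's quasi-likelihood test, leaving out *Nvwnt2*. At a Benjamini-Hochberg adjusted p under 0.05, 4423 genes (27.6%) were higher in *Nvwnt2* cells and 5231 (32.6%) were lower. Changes of over 4-fold were mostly falls against this mixed reference, with 2193 genes lower and 156 higher. That was not so against the groups chosen for other genes. Over 4-fold, 543 genes were higher and 301 lower against cells high in NV2g011441000.1. Against cells high in *NvsnailA*, 1432 were higher and 1009 lower. With totals alone in place of TMM (trimmed mean of M-values) factors, the calls were 3392 higher and 6274 lower, so that 35.1% in place of 45.8% of calls were higher, and the median log2 fold change of all genes was -0.19 in place of -0.05. Within cluster 0 alone, 79 to 127 barcodes per library had 0 *Nvwnt2* UMIs, and 9453 genes were tested. Of these, only 114 were higher and 64 lower in *Nvwnt2* cells. Among them, 104 and 36 were also called in the full comparison.

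Of the 8 marker genes of other cell types that the rule did not use, 6 were lower in *Nvwnt2* cells and 0 higher, beside the 32.6% of all genes tested that were lower and the 60.2% that were called in either direction. Their median log2 fold change was -2.31, against -0.05 over all genes. The reference also holds cells with *NvLWamide*, *Nvncol1* or *Nvmucin*, which the rule removed from the *Nvwnt2* cells only. The neuronal and stinging cell genes below are therefore also given against the 9271 reference barcodes without these 3 genes.

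**Figure D3:**
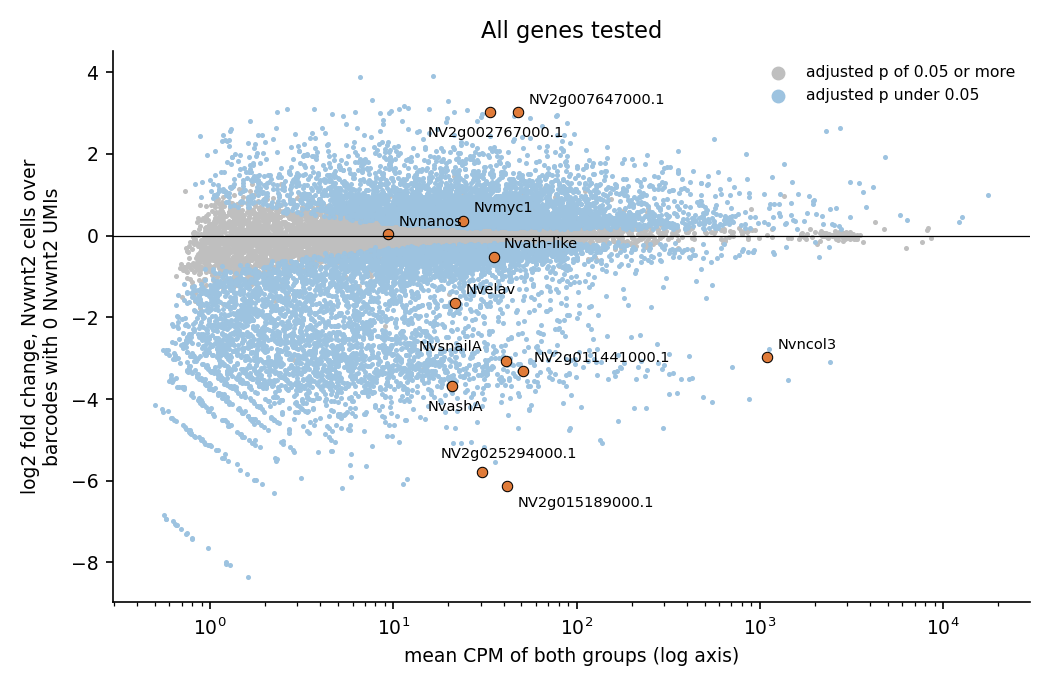
Log2 fold change of *Nvwnt2* cells over barcodes with 0 *Nvwnt2* UMIs against mean CPM (log axis) for the 16035 genes tested, with the genes named in the text in orange. Falls reach further than rises against this reference, and *Nvmyc1* and *Nvnanos* lie near 0.

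The 2 genes that mark other regions or layers were both far lower in *Nvwnt2* cells. NV2g011441000.1 had 8.92, 8.50, 3.47 and 12.4 CPM in *Nvwnt2* cells of replicates 1 to 4, against 101, 82.3, 98.7 and 108 CPM in barcodes with 0 *Nvwnt2* UMIs. The groups did not overlap in any library (log2 fold change -3.30, SE 0.23, edgeR adjusted p = 8.63e-07, lower in 4 of 4 libraries). Within cluster 0 the log2 fold change was -2.64 (edgeR adjusted p = 0.00514). *NvsnailA* had 7.31, 5.05, 4.34 and 13.5 CPM in *Nvwnt2* cells, against 71.7, 75.02, 83.6 and 80.3 CPM in barcodes with 0 *Nvwnt2* UMIs. Replicate 4 was the highest among the *Nvwnt2* cells for both genes and still lay far below every reference sum (*NvsnailA* log2 fold change -3.08, SE 0.25, edgeR adjusted p = 2.50e-06).

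Cells with both genes at a high level were rare. Of the 2116 *Nvwnt2* cells, 13 also held NV2g011441000.1 at 2 or more UMIs and 300 or more CPM, and 9 held *NvsnailA* at this level, all 9 in replicate 4. Among the 9271 barcodes with 0 UMIs of *Nvwnt2* and of the excluded genes, 569 and 258 reached these levels, so high *NvsnailA* was uncommon there too. At any level, 86 held a UMI of NV2g011441000.1 and 89 a UMI of *NvsnailA*.

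Neuronal genes were lower as well. *Nvelav*, an RNA-binding protein gene used as a neuronal marker, had 10.1, 7.70, 11.9 and 10.5 CPM in *Nvwnt2* cells, against 33.4, 29.9, 37.2 and 37.8 CPM in barcodes with 0 *Nvwnt2* UMIs. The groups were apart in every library (log2 fold change -1.64, SE 0.13, edgeR adjusted p = 2.12e-06). Against the reference without the excluded genes the difference shrank to -0.54 (edgeR adjusted p = 0.00457). *NvashA*, an achaete-scute family transcription factor gene, had 1.32, 1.86, 1.16 and 5.51 CPM in *Nvwnt2* cells, against 39.3, 36.4, 40.4 and 48.6 CPM in barcodes with 0 *Nvwnt2* UMIs. Replicate 4 again stood above the others among the *Nvwnt2* cells (log2 fold change -3.69, SE 0.33, edgeR adjusted p = 4.23e-06). Without replicate 4 the value was -4.63, and against the reference without the excluded genes it was -1.51 (edgeR adjusted p = 0.0119).

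*Nvncol3*, a minicollagen gene of the stinging capsule, had more UMIs than any other marker. It had 324, 119, 194 and 293 CPM in *Nvwnt2* cells, against 2214, 1789, 1741 and 2405 CPM in barcodes with 0 *Nvwnt2* UMIs. All 4 sums of *Nvwnt2* cells were below all reference sums (log2 fold change -2.98, SE 0.29, edgeR adjusted p = 8.39e-06), also without the excluded genes in the reference (-2.47, edgeR adjusted p = 2.54e-05). The *Nvncol3* UMIs of *Nvwnt2* cells were uneven, as 74 cells with 10 or more UMIs held 79.5% of the 5994. At any level, 36.3% of *Nvwnt2* cells (median 7300.5 UMIs) held a *Nvncol3* UMI. The share was 34.6% of cells high in NV2g011441000.1 (median 6942 UMIs) and 45.7% of cells high in *NvsnailA* (median 14296.5 UMIs), so the share in *Nvwnt2* cells lay between those of the 2 groups chosen for other genes. In *Nvwnt2* cells it varied between libraries, at 44.0%, 20.8%, 27.1% and 44.4%. *Nvelav* was detected in 9.40% of *Nvwnt2* cells, 9.49% of cells high in NV2g011441000.1 and 31.4% of cells high in *NvsnailA*. Within cluster 0 neither gene passed the test, with log2 fold changes of 0.17 for *Nvncol3* and 1.03 for *Nvelav* (edgeR adjusted p = 0.886 and 0.418).

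Of the 3 progenitor markers, 1 was called lower in *Nvwnt2* cells and 0 higher, with a median log2 fold change of 0.04. The values changed when barcodes were limited to 2000 to 20000 UMIs, where all 3 log2 fold changes were negative and 2 passed the test. The limit also changes which cells are compared, and the cause of the change was not tested. *Nvath-like*, an atonal-related transcription factor gene of neural progenitors, had 31.9, 18.6, 37.9 and 22.2 CPM in *Nvwnt2* cells, against 46.7, 45.8, 45.3 and 35.1 CPM in barcodes with 0 *Nvwnt2* UMIs. It was lower in 4 of 4 libraries, but the groups overlapped and the call was narrow (log2 fold change -0.52, SE 0.20, edgeR adjusted p = 0.0458). The call was lost without replicate 1, 2 or 4 (edgeR adjusted p = 0.0770, 0.184 and 0.0720) and against the reference without the excluded genes (0.0844), within a range of 0.000792 to 0.252 over all alternatives. In barcodes of 2000 to 20000 UMIs *Nvath-like* was lower by more, with a log2 fold change of -1.39 (edgeR adjusted p = 0.000792).

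*Nvmyc1*, a Myc family gene, had 27.5, 17.0, 27.5 and 30.2 CPM in *Nvwnt2* cells, against 24.3, 22.4, 19.0 and 22.5 CPM in barcodes with 0 *Nvwnt2* UMIs. It was higher in 3 of 4 libraries, and the difference did not pass the test (log2 fold change 0.37, SE 0.17, edgeR adjusted p = 0.0769). With the library as a replicate block the adjusted p was 0.0190, and without replicate 2 it was 0.00701. In barcodes of 2000 to 20000 UMIs the sign turned (-0.29, edgeR adjusted p = 0.224). *Nvnanos*, an RNA-binding protein gene, had 7.61, 6.11, 12.2 and 10.1 CPM in *Nvwnt2* cells, against 9.01, 10.4, 10.4 and 9.03 CPM in barcodes with 0 *Nvwnt2* UMIs. The libraries were split, 2 higher and 2 lower (log2 fold change 0.04, SE 0.18, edgeR adjusted p = 0.878). In barcodes of 2000 to 20000 UMIs *Nvnanos* was lower in *Nvwnt2* cells (-0.66, edgeR adjusted p = 0.0123).

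A minority of *Nvwnt2* cells held progenitor transcripts. At least 1 UMI of the 3 progenitor markers was found in 358 cells (16.9%), and 132 cells held 2 or all 3 of the genes. The 358 cells were deeper, with a median of 11078 UMIs against 6853.5 in the remaining *Nvwnt2* cells. *Nvmyc1* was detected in 11.7% of *Nvwnt2* cells, 7.25% of barcodes with 0 *Nvwnt2* UMIs, 22.3% of cells high in NV2g011441000.1 and 1.16% of cells high in *NvsnailA*. *Nvath-like* was detected in 7.51% of *Nvwnt2* cells, 7.43% of barcodes with 0 *Nvwnt2* UMIs, 22.0% of cells high in NV2g011441000.1 and 2.33% of cells high in *NvsnailA*. The median depths of the 4 groups were 7300.5, 2616.5, 6942 and 14296.5 UMIs, and for both genes the *Nvwnt2* cells lay between the 2 groups chosen for other genes.

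Genes beyond the marker list have no names in the files, which do not pair IDs with symbols. The 2 largest rises and 2 largest falls among genes that passed the test, moved the same way in 4 of 4 libraries and reached 50 CPM in the higher group are given by ID. NV2g002767000.1 had 64.9, 56.8, 56.5 and 49.4 CPM in *Nvwnt2* cells, against 7.84, 8.04, 7.52 and 7.39 CPM in barcodes with 0 *Nvwnt2* UMIs. The groups were far apart (log2 fold change 3.02, SE 0.10, edgeR adjusted p = 2.40e-08). NV2g007647000.1 had 87.0, 74.9, 83.1 and 79.6 CPM in *Nvwnt2* cells, against 10.5, 11.2, 10.5 and 11.9 CPM in barcodes with 0 *Nvwnt2* UMIs (log2 fold change 3.02, SE 0.08, edgeR adjusted p = 9.93e-09).

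Within cluster 0 alone, NV2g002767000.1 was higher in *Nvwnt2* cells than in barcodes with 0 *Nvwnt2* UMIs (log2 fold change 1.32, edgeR adjusted p = 0.000566), while NV2g007647000.1 did not pass the test (0.40, edgeR adjusted p = 0.0725). Whether the 2 values differ from each other was not tested. Of *Nvwnt2* cells, 32.0% held a UMI of NV2g002767000.1 and 44.6% a UMI of NV2g007647000.1, against 3.62% and 6.06% of barcodes with 0 *Nvwnt2* UMIs. With every cell thinned to 1000 UMIs the shares were 5.07% and 7.15% in *Nvwnt2* cells, against 1.39% and 1.72%.

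The 2 falls were far smaller once barcodes with the excluded genes left the reference. NV2g015189000.1 had 1.02, 0.531, 1.16 and 1.43 CPM in *Nvwnt2* cells, against 93.1, 77.0, 112 and 63.4 CPM in barcodes with 0 *Nvwnt2* UMIs (log2 fold change -6.12, SE 0.28, edgeR adjusted p = 7.99e-08). NV2g025294000.1 had 0.439, 0.531, 0.869 and 1.76 CPM, against 71.1, 74.0, 39.1 and 66.8 CPM (-5.79, SE 0.35, edgeR adjusted p = 3.45e-07). Cluster 10, which held 0 *Nvwnt2* cells, carried 1596 CPM of the first gene and 1280 CPM of the second. Against the reference without the excluded genes the differences were -1.28 (edgeR adjusted p = 0.00336) and -2.39 (0.000591). Without replicate 4 the fall of NV2g025294000.1 was -6.60. Over all libraries, NV2g015189000.1 was about as low in the groups chosen for other genes. It had 1.12 CPM in *Nvwnt2* cells, 1.02 in cells high in NV2g011441000.1 and 0.431 in cells high in *NvsnailA*, from 26, 6 and 2 UMIs. NV2g025294000.1 had 1.04, 4.58 and 6.67 CPM in these groups, from 24, 27 and 31 UMIs.

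Set against cells high in NV2g011441000.1, *Nvwnt2* cells were compared over 11696 genes. At the same threshold 2774 (23.7%) were higher and 2768 (23.7%) lower in *Nvwnt2* cells. Of 6 testable markers, 3 were lower and 0 higher, beside the 47.4% of all genes called in either direction, and their median log2 fold change was -0.52, against -0.04 over all genes. *Nvmyc1* had 27.5, 17.0, 27.5 and 30.2 CPM in *Nvwnt2* cells, against 53.7, 59.3, 43.1 and 77.6 CPM in cells high in NV2g011441000.1. No sum of *Nvwnt2* cells reached the lowest of the other group (log2 fold change -1.15, SE 0.19, edgeR adjusted p = 0.000346).

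*Nvath-like* was also lower in *Nvwnt2* cells, which had 31.9, 18.6, 37.9 and 22.2 CPM, than in cells high in NV2g011441000.1, which had 59.8, 47.7, 59.1 and 49.9 CPM (log2 fold change -0.95, SE 0.21, edgeR adjusted p = 0.00277). *NvsnailA* had 7.31, 5.05, 4.34 and 13.5 CPM, against 19.6, 19.8, 15.9 and 28.7 CPM (-1.36, SE 0.33, edgeR adjusted p = 0.00449). The other markers did not pass the test. *Nvncol3* differed by 0.12 (SE 0.48, edgeR adjusted p = 0.866) and was higher in 1 and lower in 3 libraries. *Nvelav* differed by -0.09 (SE 0.21, edgeR adjusted p = 0.771) and *Nvnanos* by 0.36 (SE 0.32, edgeR adjusted p = 0.383). *NvashA* had too few UMIs for the test, with 70 in *Nvwnt2* cells and 23 in cells high in NV2g011441000.1.

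NV2g002767000.1, chosen above for its rise in these same *Nvwnt2* cells, was far lower in cells high in NV2g011441000.1. A UMI of it was found in 32.0% of *Nvwnt2* cells and in 0.879% of cells high in NV2g011441000.1. It had 64.9, 56.8, 56.5 and 49.4 CPM in *Nvwnt2* cells, against 1.51, 0, 0 and 1.51 CPM in cells high in NV2g011441000.1, where 6 UMIs were found in all. The fitted log2 fold change was 5.81 (SE 0.31, edgeR adjusted p = 4.03e-08). NV2g007647000.1 had 87.0, 74.9, 83.1 and 79.6 CPM, against 22.6, 26.7, 11.3 and 28.2 CPM (1.88, SE 0.18, edgeR adjusted p = 3.67e-06). The comparison with barcodes of 0 *Nvwnt2* UMIs uses the same *Nvwnt2* cells, and its reference includes the cells high in NV2g011441000.1, so the values are not independent of those above.

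Against cells high in *NvsnailA*, 12092 genes were tested, and 3939 (32.6%) were higher and 3557 (29.4%) lower in *Nvwnt2* cells. In barcodes of 2000 to 20000 UMIs, 10001 genes were tested, and 2808 were higher and 2313 lower. Of 6 testable markers, 4 were higher in *Nvwnt2* cells and 1 lower, beside the 62% of all genes called in either direction, with a median log2 fold change of 2.51, against 0.03 over all genes. The cells high in *NvsnailA* were few, 44, 49, 41 and 124 per library, so that low counts limit this comparison.

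The 3 progenitor markers were all higher in *Nvwnt2* cells than in cells high in *NvsnailA*. *Nvath-like* had 31.9, 18.6, 37.9 and 22.2 CPM, against 3.58, 7.33, 2.75 and 0.504 CPM (log2 fold change 3.35, SE 0.47, edgeR adjusted p = 4.33e-05), with 4.10 without replicate 2 and 2.75 without replicate 4. *Nvmyc1* had 27.5, 17.0, 27.5 and 30.2 CPM, against 0.896, 0, 0 and 1.01 CPM. With 3 UMIs in the cells high in *NvsnailA*, the ratio of *Nvmyc1* CPM was 41.6 with a 95% counting interval of 14.2 to 202 (edgeR adjusted p = 5.04e-07). *Nvnanos* had 7.61, 6.11, 12.2 and 10.1 CPM, against 0, 1.22, 0 and 2.02 CPM from 5 UMIs (log2 fold change 3.14, SE 0.55, edgeR adjusted p = 0.000274), with 4.39 without replicate 4.

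*Nvncol3* was higher in *Nvwnt2* cells, with 324, 119, 194 and 293 CPM, than in cells high in *NvsnailA*, with 43.0, 77.0, 55.1 and 91.3 CPM (log2 fold change 1.89, SE 0.30, edgeR adjusted p = 0.000132). In barcodes of 2000 to 20000 UMIs this difference was lost (0.35, edgeR adjusted p = 0.626). *Nvelav* was lower in *Nvwnt2* cells, with 10.1, 7.70, 11.9 and 10.5 CPM, against 13.4, 28.1, 26.1 and 31.3 CPM (log2 fold change -1.21, SE 0.23, edgeR adjusted p = 0.000493). NV2g011441000.1 was low in both groups, with 8.92, 8.50, 3.47 and 12.4 CPM, against 8.96, 2.44, 5.51 and 14.1 CPM (0.06, SE 0.43, edgeR adjusted p = 0.920).

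NV2g002767000.1 was nearly absent from cells high in *NvsnailA*, where it had 3 UMIs, against 1302 in *Nvwnt2* cells. The ratio of its CPM was 87.1 with a 95% counting interval of 29.7 to 423 (edgeR adjusted p = 4.35e-09). NV2g007647000.1 had 87.0, 74.9, 83.1 and 79.6 CPM in *Nvwnt2* cells, against 3.58, 0, 0 and 3.53 CPM (log2 fold change 5.198, SE 0.31, edgeR adjusted p = 1.58e-08).

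**Figure D4:**
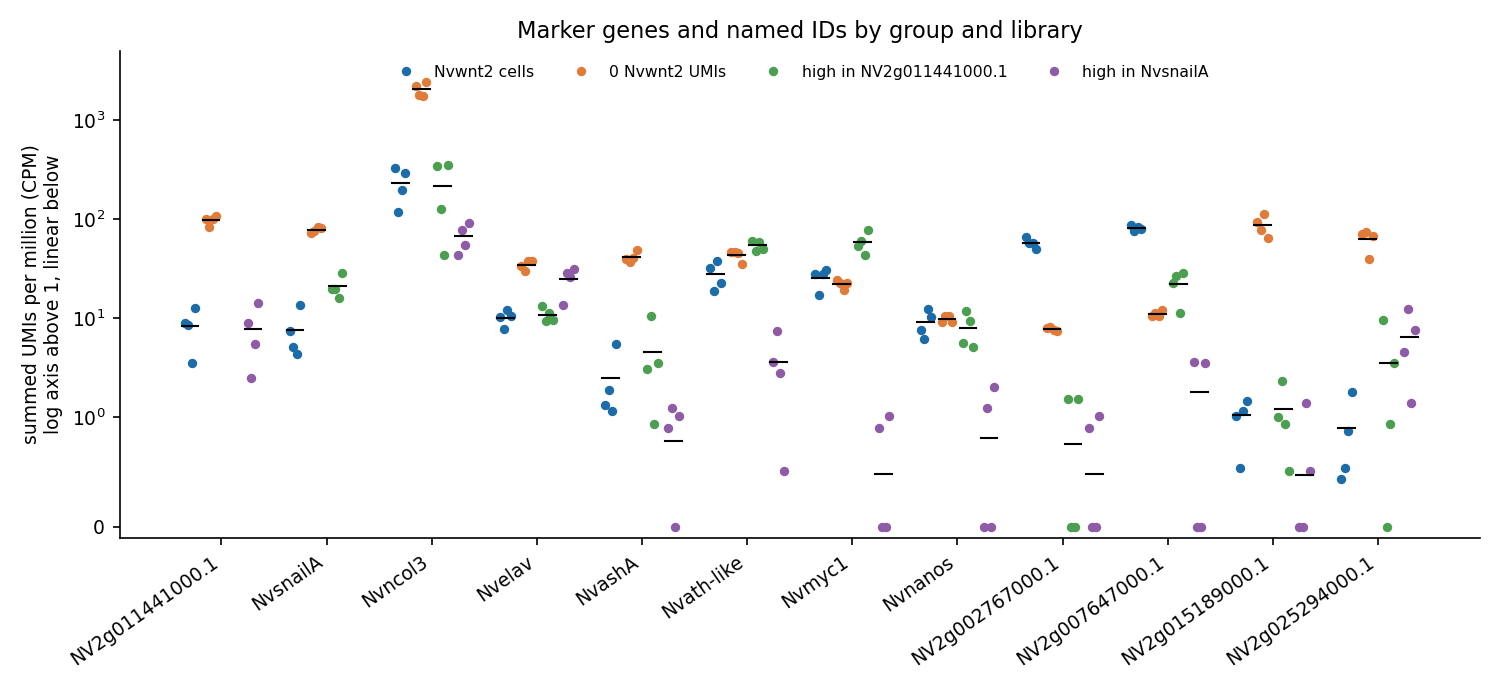
Summed CPM (log axis above 1, linear below) of 8 marker genes and 4 IDs in *Nvwnt2* cells, barcodes with 0 *Nvwnt2* UMIs, cells high in NV2g011441000.1 and cells high in *NvsnailA*. Each point is 1 library and each line a mean, and the gene that chose a group is not drawn for it. NV2g002767000.1 is at 49.4 to 64.9 CPM in *Nvwnt2* cells and at or below 8.04 CPM in the other 3 groups.

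Levels were then followed across 5 classes of *Nvwnt2*, as a description, in barcodes without the excluded genes: 0 UMIs (9271 barcodes), detected but under the rule (2083), and *Nvwnt2* cells at 300 to under 600 (793), 600 to under 1200 (876) and 1200 or more CPM (447). The last class was the shallowest among *Nvwnt2* cells, with a median of 3470 UMIs against 8884 in the first.

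NV2g011441000.1 stepped down at the border of the rule, while *NvsnailA* fell both before it and at it. NV2g011441000.1 averaged 113 ± 15.4, 98.4 ± 36.2, 12.3 ± 6.49, 4.17 ± 2.52 and 4.91 ± 3.74 CPM from the lowest to the highest class (SD, n = 4 libraries). Barcodes with *Nvwnt2* under the rule were thus close to those with 0 UMIs, and the fall came between them and the *Nvwnt2* cells. *NvsnailA* averaged 86.2, 51.8, 11.01, 4.24 and 2.77 CPM. The stinging cell gene *Nvncol3* fell from each class to the next, also within the *Nvwnt2* cells, with 1456, 806, 318, 156 and 90.7 CPM.

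Progenitor markers followed another course. *Nvmyc1* averaged 23.2 ± 3.62, 27.8 ± 8.46, 29.5 ± 7.12, 23.4 ± 5.89 and 13.9 ± 4.88 CPM, and *Nvnanos* 8.84, 9.57, 10.8, 7.68 and 4.96 CPM. Both means were lowest in the class with the most *Nvwnt2* and showed no step at the border of the rule. The *Nvnanos* mean of that class came from 10 UMIs, with an SD of 5.403 CPM. In replicate 3, *Nvnanos* was highest in that class. *Nvath-like* averaged 41.3, 33.7, 32.6, 26.6 and 6.18 CPM, with 0.993 to 9.42 CPM over the libraries in the last class, from 13 UMIs.

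The 2 risen IDs climbed with *Nvwnt2*. NV2g002767000.1 averaged 8.14 ± 0.547, 19.7 ± 2.83, 46.7 ± 7.35, 65.9 ± 8.24 and 72.8 ± 26.7 CPM, and NV2g007647000.1 averaged 12.4 ± 0.538, 36.2 ± 5.94, 70.1 ± 5.42, 93.5 ± 7.57 and 88.7 ± 14.3 CPM. The last 2 classes overlapped for both genes. The classes for these IDs were looked at after the IDs had been chosen in the same cells.

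**Figure D5:**
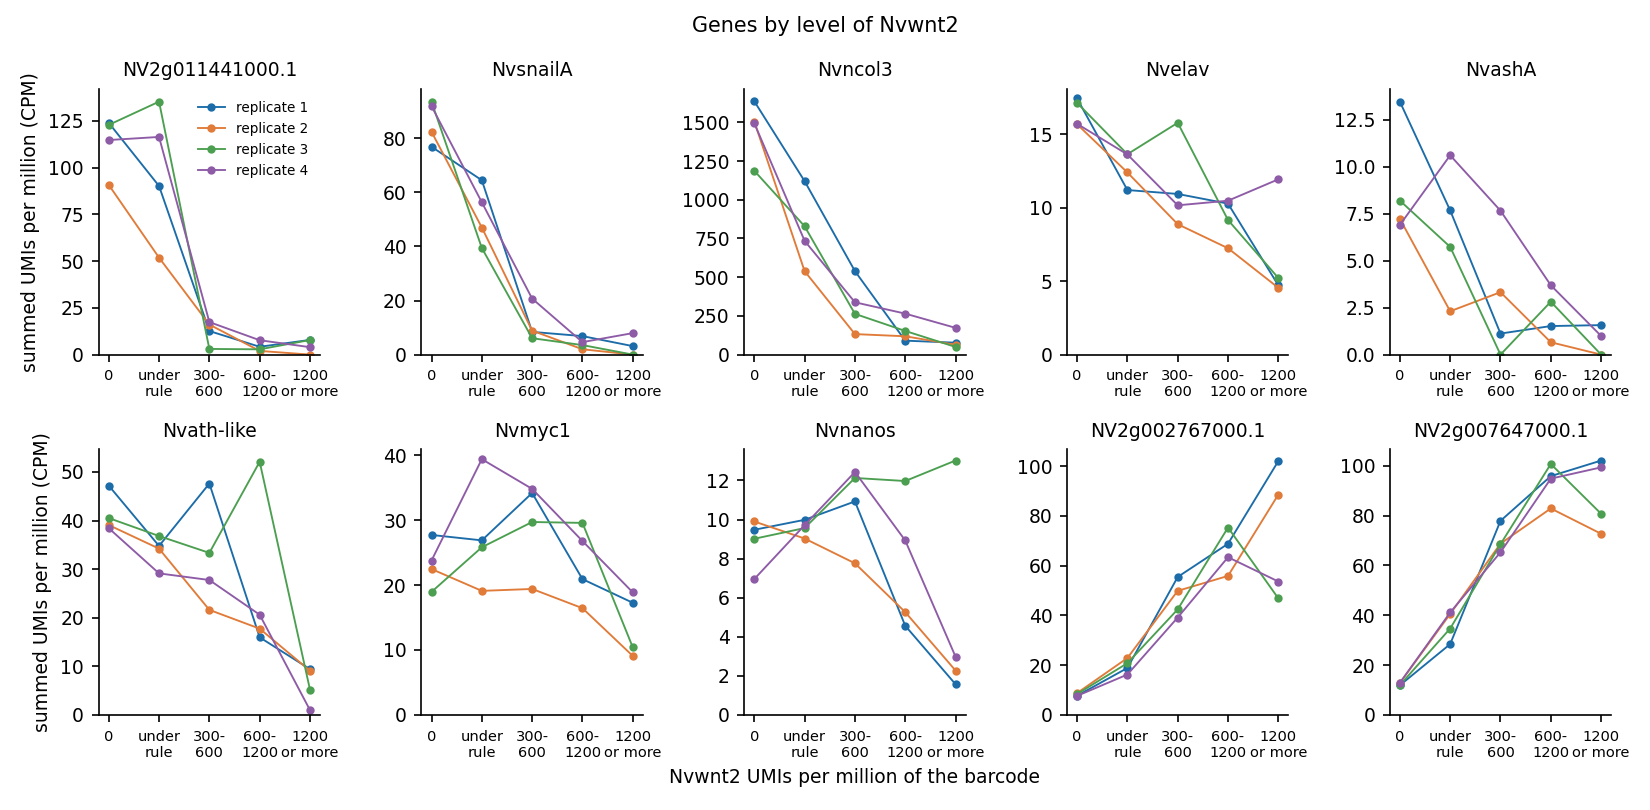
Summed CPM of 8 markers and of the 2 IDs with the largest rise in 5 classes of *Nvwnt2* CPM, from 0 to 1200 or more, in barcodes without *NvLWamide*, *Nvncol1* and *Nvmucin* UMIs. Each line is 1 library. NV2g011441000.1 drops between the second and the third class, and *NvsnailA* drops there and between the first and the second. NV2g002767000.1 and NV2g007647000.1 climb from the first to the fourth.

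To compare shares of cells at equal depth, UMIs were drawn down to 1000 in every cell. This left out 45 *Nvwnt2* cells and 1697 barcodes with 0 *Nvwnt2* UMIs. NV2g011441000.1 was then found in 0.851% ± 0.755 of *Nvwnt2* cells and 5.86% ± 0.820 of barcodes with 0 *Nvwnt2* UMIs (SD, n = 4 each). *NvsnailA* was found in 0.799% ± 1.16 and 3.44% ± 0.628, *Nvelav* in 0.725% ± 0.438 and 3.03% ± 0.281, and *NvashA* in 0.217% ± 0.323 and 3.25% ± 0.627. These 4 differences had the smallest p a two-sided exact permutation test of 4 against 4 libraries allows, 0.0286, and an adjusted p of 0.0571 over 8 genes, so that 0 of 8 passed. The count depended on the depth drawn, with 6 of 8 past the threshold at 500 UMIs and 5 of 8 at 2000 UMIs. *Nvncol3* was found in 9.003% ± 6.15 and 22.2% ± 7.33 (exact permutation p = 0.0857, adjusted 0.137). For *Nvath-like*, *Nvmyc1* and *Nvnanos* the p-values were 0.171, 0.743 and 0.143. Without thinning, *Nvmyc1* and *Nvnanos* were detected in more of the deeper *Nvwnt2* cells, by 3.82 and 1.56 percentage points.

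The study used a list of 10 mitochondrial genes to filter out cells of low quality. These genes took 1.15%, 0.979%, 0.705% and 0.830% of the UMIs of *Nvwnt2* cells, against 1.26%, 1.02%, 0.775% and 1.06% in barcodes with 0 *Nvwnt2* UMIs. The share was lower in 4 of 4 libraries, but the groups overlapped and the difference of -0.112 percentage points did not pass a two-sided exact permutation test (p = 0.457, and p = 0.125, the smallest possible, with libraries as pairs). Only 11 *Nvwnt2* cells exceeded 10%.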

How the data were processed

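The deposited values were UMI counts per gene and barcode, which the authors made with Cell Ranger (6.1.2 in the file headers, 7.1.1 in the submitters' processing notes) and did not normalize. The 4 matrices were joined over their 24526 gene IDs, and barcodes with at least 500 genes were kept. The members, gene lists and tests were chosen with earlier results of these data known. Named genes were the study's marker genes with an ID, of which 12 of 13 were found, the summed UMIs of 10 mitochondrial genes, and 4 further IDs, 2 from each end of the ranked fold changes, by the criteria given in the report. *NvNgal* was not analysed here. UMIs summed per library and group were tested in edgeR 4.0.16 (quasi-likelihood, TMM, filterByExpr, Benjamini-Hochberg), with DESeq2 1.42.0 as an alternative. SE was taken from the log2 fold change and the F statistic. CPM values in the text are plain sums, without TMM. Clusters came from Seurat 5.3.0 (30 principal components, resolution 0.5). Shares were tested with exact permutation (scipy 1.17.1). On simulated counts with known changes in 200 genes, edgeR recovered 88% of 2-fold and 100% of 4-fold changes in the comparison with barcodes of 0 *Nvwnt2* UMIs (16218 genes). It recovered 91% and 96% in that with cells high in NV2g011441000.1 (11579 genes), and 74% and 97% in that with cells high in *NvsnailA* (11739 genes). The changed genes had higher counts, as many rose as fell, and libraries were simulated without pairing. Far more genes were called in the data, so these rates hold for the simulated setting only.

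Both groups of a comparison came from the same library, which pairs them by number. Sums of the same library deviated together, with correlations of 0.57, 0.25, 0.22 and 0.37 in the comparison with barcodes of 0 *Nvwnt2* UMIs, 0.52, 0.18, 0.11 and 0.25 in that with cells high in NV2g011441000.1, and 0.36, 0.13, 0.12 and 0.16 in that with cells high in *NvsnailA*. A fit with the library as a replicate block was therefore run as well.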

Additional observations from a re-analysis of the deposited data

Results flagged for a closer look

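Over 33 groups of 4 libraries examined with Dixon's test for a single outlying value, 2 had a library far from the others, and chance gives about 1 in 20. *NvashA* in *Nvwnt2* cells was 5.51 CPM in replicate 4, far above the other libraries. *Nvath-like* in barcodes with 0 *Nvwnt2* UMIs was 35.1 CPM in replicate 4, far below the others.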

How the results depend on the processing

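Within cluster 0, 114 genes were higher and 64 lower in *Nvwnt2* cells than in barcodes with 0 *Nvwnt2* UMIs, with far fewer cells and genes, and *Nvncol3* (0.17), *Nvelav* (1.03) and *Nvath-like* (1.26) turned sign on the log2 scale. At 2000 to 20000 UMIs *Nvmyc1* was -0.29, *Nvnanos* -0.66 and *Nvath-like* -1.39. *Nvnanos* was -0.11 without TMM factors, -0.40 with *Nvwnt2* at 3 UMIs and 600 CPM, and -0.10 to 0.20 with 1 library left out. Against cells high in NV2g011441000.1, *Nvncol3* was -0.075 at 2000 to 20000 UMIs, -0.71 at the stricter level and -0.12 to 0.31 with 1 library left out, *Nvelav* 0.017 without a filter, 0.0020 at 2000 to 20000 UMIs and -0.18 to 0.059 with 1 library left out, and *Nvnanos* -0.063 at the stricter level. Against cells high in *NvsnailA*, NV2g011441000.1 was -0.041 without TMM factors and -0.16 to 0.32 with 1 library left out. In the same comparison 2808 genes were higher and 2313 lower at 2000 to 20000 UMIs. The cause of these changes was not tested. The other values of named genes kept their direction and their side of the threshold, apart from 8 that kept only their direction: 159 of 175, 97 of 104 and 98 of 101 against the 3 references.

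Leaving out 1 library gave 3803 to 4326 genes higher and 4666 to 4760 lower against barcodes with 0 *Nvwnt2* UMIs, 2494 to 2572 and 2162 to 2340 against cells high in NV2g011441000.1, and 3352 to 3761 and 3283 to 3628 against cells high in *NvsnailA*. It gave a mean share of *Nvwnt2* cells of 13.5% to 15.3%, a share of cluster 0 of 55.4% to 56.6%, and a mitochondrial difference of -0.135 to -0.0735 percentage points. With the library as a replicate block the counts were 4941 and 5743, 2942 and 2984, and 4068 and 3649, and the block changed the call of *Nvmyc1* (adjusted p = 0.0190, edgeR) and of no other named gene. Pairing the mitochondrial shares was chosen after seeing the data.

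The mean share of *Nvwnt2* cells was 18.7% at 1000 or more genes, 7.44% (1082 cells) at 3 UMIs and 600 CPM, and 27.0% (4199 cells) at 1 or more UMIs. The leading cluster was 59.0% *Nvwnt2* cells at resolution 1.0 and 37.4% with 2000 variable genes. Of 8 markers, 0 differed in share at 1000 UMIs by the adjusted exact test, 6 at 500 and 5 at 2000. The difference of *Nvmyc1* was 0.0083 percentage points at 500 UMIs, 3.82 without thinning and -0.308 to 0.263 with 1 library left out, and that of *Nvnanos* was 1.56 without thinning.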
